A study of Mus musculus with 6 samples.

Results

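Solute carriers are the membrane proteins that move amino acids, sugars, ions, metals, vitamins and other small molecules into and out of cells and their organelles. The genes described here are the protein-coding genes whose symbol begins with Slc and a family number, without the mitochondrial Slc25a family and without 9 carriers of glucose, lactate, iron, creatine and large neutral amino acids (Slc7a5, Slc3a2, Slc2a1, Slc2a4, Slc16a1, Slc16a3, Slc6a8, Slc40a1 and Slc11a2). They number 150 of the 13105 genes in the deposited table and were grouped by family number and substrate. Among them, 4 carry such a symbol without being carriers: Slc9a3r1 and Slc9a3r2 encode scaffold proteins, Slc4a1ap an adaptor protein, and Slc7a6os lies on the strand opposite Slc7a6.

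The muscles are 3 denervated biceps and the 3 contralateral biceps of the same CD-1 mice. The nerve supply of one side had been removed on postnatal day 5 by unilateral excision of C5-T1, and both biceps were frozen on postnatal day 26, 3 weeks later. All animals therefore carried the injury, and the control muscle is the opposite side of an injured mouse, not the muscle of an uninjured one. Whole muscles were sequenced and no cell type was sorted, so fewer cells of a type and less RNA per cell cannot be told apart. Values are in TPM, a relative transcript abundance corrected for transcript length, and are given in the order of mice 1, 2 and 3.

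Each family is tied to a fuel or a gradient. Sodium-coupled carriers such as those of families SLC1, SLC6 and SLC38 use the gradient kept up by the sodium pump to gather amino acids, and SLC7 and SLC43 carriers exchange or release them. SLC4 and SLC9 carriers move bicarbonate and protons and so set the pH of the cytosol and of endosomes, SLC12 carriers move chloride with potassium or sodium, SLC30 and SLC39 carriers move zinc in opposite directions, and SLC35 carriers bring nucleotide sugars to the Golgi apparatus and endoplasmic reticulum. In skeletal muscle, amino acid carriers feed protein synthesis, and proton and bicarbonate carriers handle the acid that contraction produces.

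As deposited, most solute carriers had higher values in denervated muscle, like most genes of the table. Of the 140 members with at least 1 TPM in at least 3 of the 6 libraries, 125 had a positive log2 fold change (denervated over control), as did 10946 of all 12268 genes tested. Of the 140, 118 were higher in the denervated muscle of all 3 mice, which was not counted over all genes. The median log2 fold change of the 140 members was 0.77, beside 0.71 for all 12268 genes tested. Since the typical gene moved, values are also compared after scaling by median of ratios, which brought the median of all genes to 0.0091 and that of the members to 0.096. The words rose and fell are kept for members that limma called alike, higher or lower, on both scales at an adjusted p under 0.05 (Benjamini-Hochberg over all genes tested). By this rule 26 members rose and 7 fell. That is 18.6% and 5.00% of the members tested, beside 15.7% and 4.50% of all genes, so the shares are near those of the whole table. The counts of rises and falls in every group and list below stand beside the same 15.7% and 4.50%. On the deposited scale alone 109 members were called higher and 7 lower (69.9% and 4.50% of all genes), and after scaling 26 were called higher and 25 lower (15.7% and 18.6% of all genes). The share of calls that were higher calls was therefore 93.97% for members on the deposited scale and 50.98% after scaling, and 93.96% and 45.74% for all genes. Every higher call after scaling was also made on the deposited scale, and every lower call on the deposited scale was also made after scaling. Rises are thus the higher calls of the scaled fit and falls the lower calls of the deposited fit, for members and all genes. A fall had to stand against the general upward shift, so the 26 rises and 7 falls are not a like-for-like count.

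**Figure D1:**
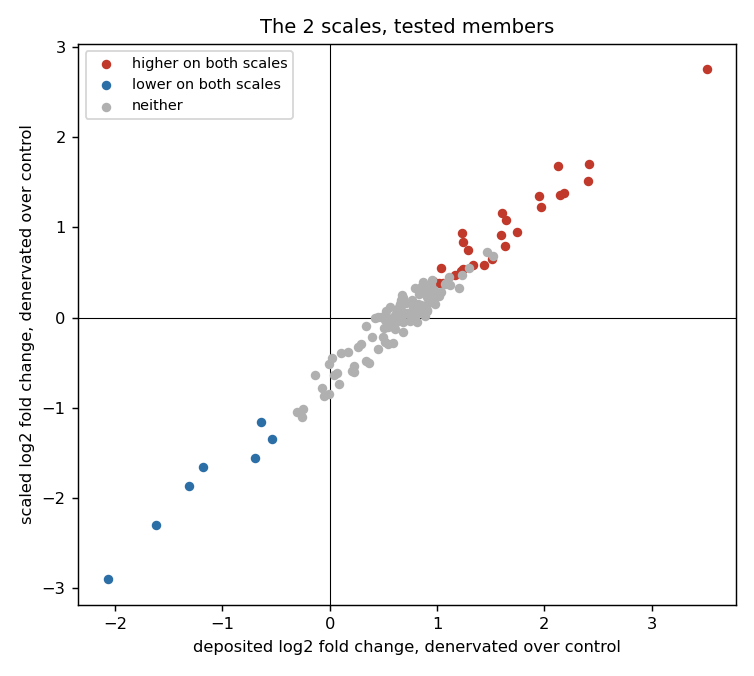
Each point is 1 of the 140 members tested, with its log2 fold change on the deposited scale along the horizontal axis and after median-of-ratios scaling along the vertical axis, both denervated over control. Scaling lowers the cloud, but the low gene Slc44a4 (1.23 to 0.94) by less than the abundant Slc38a6 (2.40 to 1.52). The 7 fallen members (blue) lie at the lower end of the cloud. The 26 risen members (red) reach its upper end and in part lie among uncalled ones.

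The other members fall into 3 kinds. For 83 members the higher call on the deposited scale was not kept after scaling, where their values lay between -0.35 and 0.73. A further 18 members were called lower after scaling without a lower call on the deposited scale, among them Slc38a3, Slc38a4, Slc12a2, Slc27a1, Slc8a3 and the scaffold gene Slc9a3r2. One of them, Slc35e1, belongs to both kinds, with a higher call before scaling (0.55) and a lower call after it (-0.29). No call was made on either scale for 7 members, namely Slc15a2, Slc16a7, Slc2a8, Slc38a7, Slc38a10, Slc39a3 and Slc4a4. The 10 members that were not tested reached at most 2.84 TPM, apart from Slc1a2, a glial glutamate carrier, which had 0.269, 0.354 and 6.59 TPM in denervated muscles, against 0.0480, 0.116 and 0.0846 TPM in control muscles and was therefore high in 1 library alone. Members named outside the risen and fallen genes and the most abundant gene of each substrate group (by the mean over all 6 libraries) were chosen after their values were seen.

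The carriers of whole biceps are led by a few genes. In denervated muscle the highest means were those of Slc38a6 (183 TPM), Slc38a2 (59.3 TPM) and Slc6a6 (50.6 TPM). In control muscle they were those of Slc41a3 (43.6 TPM), Slc41a1 (35.3 TPM) and Slc38a6 (33.2 TPM). Summed over all 150 members, the level was 1222 to 1540.4 TPM in denervated and 647 to 733 TPM in control libraries, and without Slc38a6 it was 1066 to 1310.3 TPM and 615 to 699.7 TPM. Low levels were common, with 86 members under 5 TPM in the denervated mean and 116 in the control mean. As deposited, the groups did not overlap for 126 of all 150 members, so separation on that scale was the usual case among them. The same count was not made over all genes. Since 69.9% of all genes tested were called higher on that scale, it is not read as a trait of the carriers.

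**Figure D2:**
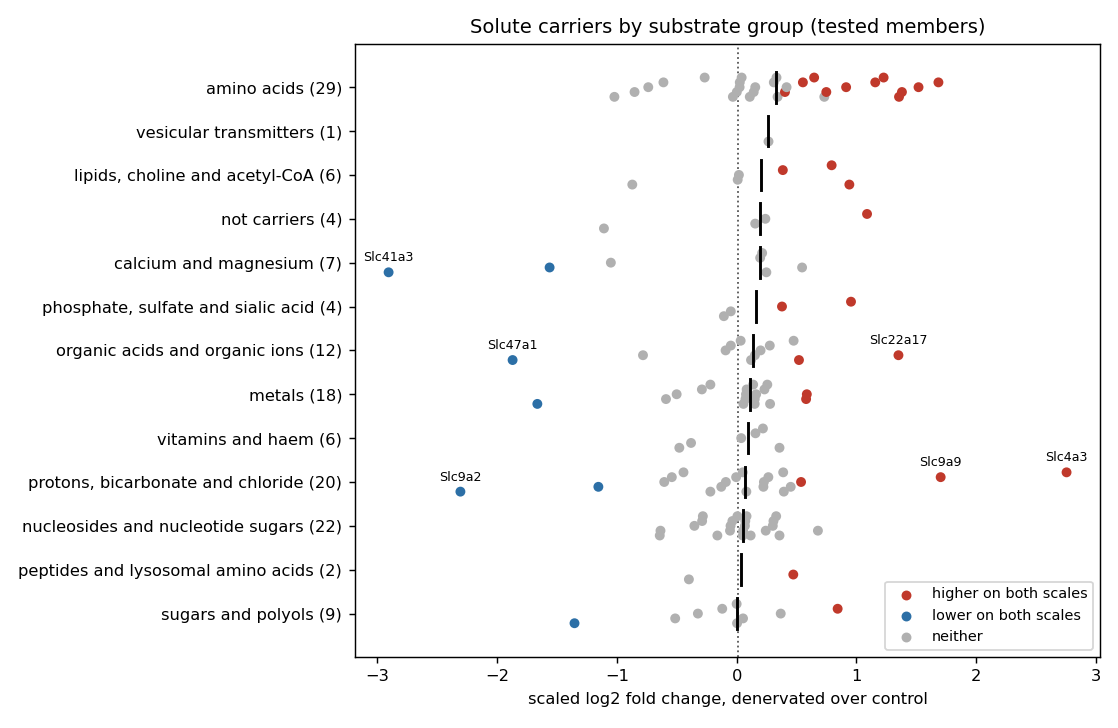
Each point is 1 tested member, placed by its scaled log2 fold change (denervated over control) in the row of its substrate group, with the number tested in brackets. Red members rose and blue members fell on both scales, black bars mark group medians and the dotted line the median of all genes; the amino acid row holds 11 red points and no blue one.

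Amino acid carriers, the largest substrate group, held the most rises by count. Of 29 tested carriers of amino acids and taurine, 11 rose and 0 fell, where 15.7% and 4.50% of all genes rose and fell by the same rule. The group median was 0.86 on the deposited scale and 0.33 after scaling, beside 0.71 and 0.0091 for all genes. After scaling alone, 3 were called lower. The summed level of all 30, which was not scaled, was 428 to 543 TPM in denervated and 141 to 186 TPM in control libraries. Slc38a6 alone, whose level is uncertain for a reason given below, held 156 to 230.1 TPM and 30.2 to 36.6 TPM of it. Of family SLC1, all 4 tested members rose, while SLC38 had 3 rises among 8 and the SLC7 carriers had 1 among 8. Of the 11 risen genes, Slc1a4, Slc36a2, Slc38a1 and Slc7a15 were under 1 TPM in every control library. They were tested only through denervated muscle, where they are high.

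The neutral amino acid exchanger gene Slc1a5, whose product ASCT2 takes up glutamine (ENSMUSG00000001918, chromosome 7: 16781340 to 16798274, plus strand, GRCm38), had 25.9, 20.2 and 28.5 TPM in denervated muscles, against 3.35, 6.23 and 4.67 TPM in control muscles (log2 fold change 2.19 ± 0.21 (SE), adjusted p = 5.6e-05; scaled 1.38 ± 0.20, adjusted p = 0.00192). The lowest denervated library stood well above the highest control library. Slc1a4, its paralogue for alanine, serine and cysteine, had 2.93, 2.29 and 1.87 TPM in denervated muscles, against 0.520, 0.830 and 0.528 TPM in control muscles (scaled log2 fold change 0.55, adjusted p = 0.0163). The glutamate carriers rose as well. Slc1a3, the carrier GLAST of glia, had 12.3, 11.1 and 12.4 TPM in denervated muscles, against 2.75, 2.12 and 2.09 TPM in control muscles (log2 fold change 1.97 ± 0.16 (SE), adjusted p = 1.84e-05; scaled 1.23 ± 0.14, adjusted p = 6.18e-04), so that its denervated libraries lay close together and far from the controls. Slc1a1, the widely expressed glutamate and cysteine carrier EAAC1, had 9.51, 4.47 and 7.07 TPM in denervated muscles, against 1.62, 1.20 and 1.92 TPM in control muscles (scaled log2 fold change 0.91, adjusted p = 0.0157). Its denervated libraries were spread, with mouse 2 lowest. In GENCODE, 31.5% of the 31-base stretches of Slc1a1 transcripts also occur in other genes, nearly all of them in an overlapping gene on the opposite strand, so the level of Slc1a1 is uncertain.

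In family SLC38, the sodium-coupled carriers of glutamine and other small neutral amino acids, Slc38a6 was the most abundant member in denervated muscle. It had 230.1, 156 and 162 TPM in denervated muscles, against 36.6, 32.9 and 30.2 TPM in control muscles (log2 fold change 2.40 ± 0.18 (SE), adjusted p = 1.17e-05; scaled 1.52 ± 0.11, adjusted p = 7.23e-05), and the groups were far apart. Its level is uncertain, because 40.7% of its 31-base stretches occur in other genes, 31.3% of all in Noct alone, a gene elsewhere in the genome. Slc38a1, a glutamine carrier best known from neurons, had 2.33, 5.46 and 2.31 TPM in denervated muscles, against 0.327, 0.412 and 0.344 TPM in control muscles (scaled log2 fold change 1.16, adjusted p = 0.0165), with mouse 2 well above the other denervated muscles. Slc38a9, a lysosomal carrier that reports arginine to mTORC1, had 2.93, 2.69 and 3.15 TPM in denervated muscles, against 0.979, 1.01 and 1.02 TPM in control muscles (scaled log2 fold change 0.40, adjusted p = 0.0434; blocked by mouse, adjusted p = 0.0580). The groups did not overlap, yet its call rests close to the threshold. Slc38a2, a carrier known to be induced when amino acids are scarce, had 62.6, 58.7 and 56.6 TPM in denervated muscles, against 20.9, 32.2 and 23.3 TPM in control muscles. It was called higher on the deposited scale (1.21) but not after scaling (0.33, adjusted p = 0.106; blocked by mouse, adjusted p = 0.0387).

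Slc43a2, which encodes LAT4, a carrier that lets branched-chain and aromatic amino acids leave cells, had 19.8, 24.3 and 15.03 TPM in denervated muscles, against 3.12, 4.16 and 3.61 TPM in control muscles (log2 fold change 2.14 ± 0.19 (SE), adjusted p = 3.72e-05; scaled 1.36 ± 0.19, adjusted p = 0.00141). Slc7a15, a rodent carrier of aromatic amino acids, had 5.00, 4.18 and 3.77 TPM in denervated muscles, against 0.224, 0.281 and 0.130 TPM in control muscles (log2 fold change 2.13 ± 0.16 (SE), adjusted p = 1.51e-05; scaled 1.68 ± 0.12, adjusted p = 6.96e-05) and was near 0 in every control library. The taurine carrier Slc6a6 had 56.9, 50.96 and 43.8 TPM in denervated muscles, against 15.6, 19.5 and 16 TPM in control muscles (log2 fold change 1.52 ± 0.16 (SE), adjusted p = 7.73e-05; scaled 0.65 ± 0.10, adjusted p = 0.00219). Slc36a2, a proton-coupled carrier of glycine and proline known from muscle and brown fat, had 3.89, 2.21 and 4.14 TPM in denervated muscles, against 0.740, 0.876 and 0.681 TPM in control muscles (scaled log2 fold change 0.75, adjusted p = 0.0147). These 4 genes did not overlap between the groups, which as deposited held for 126 of all 150 members and was not counted over all genes. Of the remaining members of family SLC7, Slc7a10 had 13.97, 6.38 and 9.82 TPM in denervated muscles, against 1.39, 4.72 and 3.11 TPM in control muscles and was not called after scaling (0.73, adjusted p = 0.135). Its level is uncertain, since 14.9% of its 31-base stretches occur in Lrp3 on the opposite strand.

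Among those called lower after scaling alone, Slc38a4 had 20.4, 14.3 and 16.04 TPM in denervated muscles, against 13.4, 23.9 and 14.7 TPM in control muscles, with a log2 fold change of -0.0045 on the deposited scale and -0.85 after scaling. The groups overlapped on the deposited scale, with control mouse 2 the highest library.

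**Figure D3:**
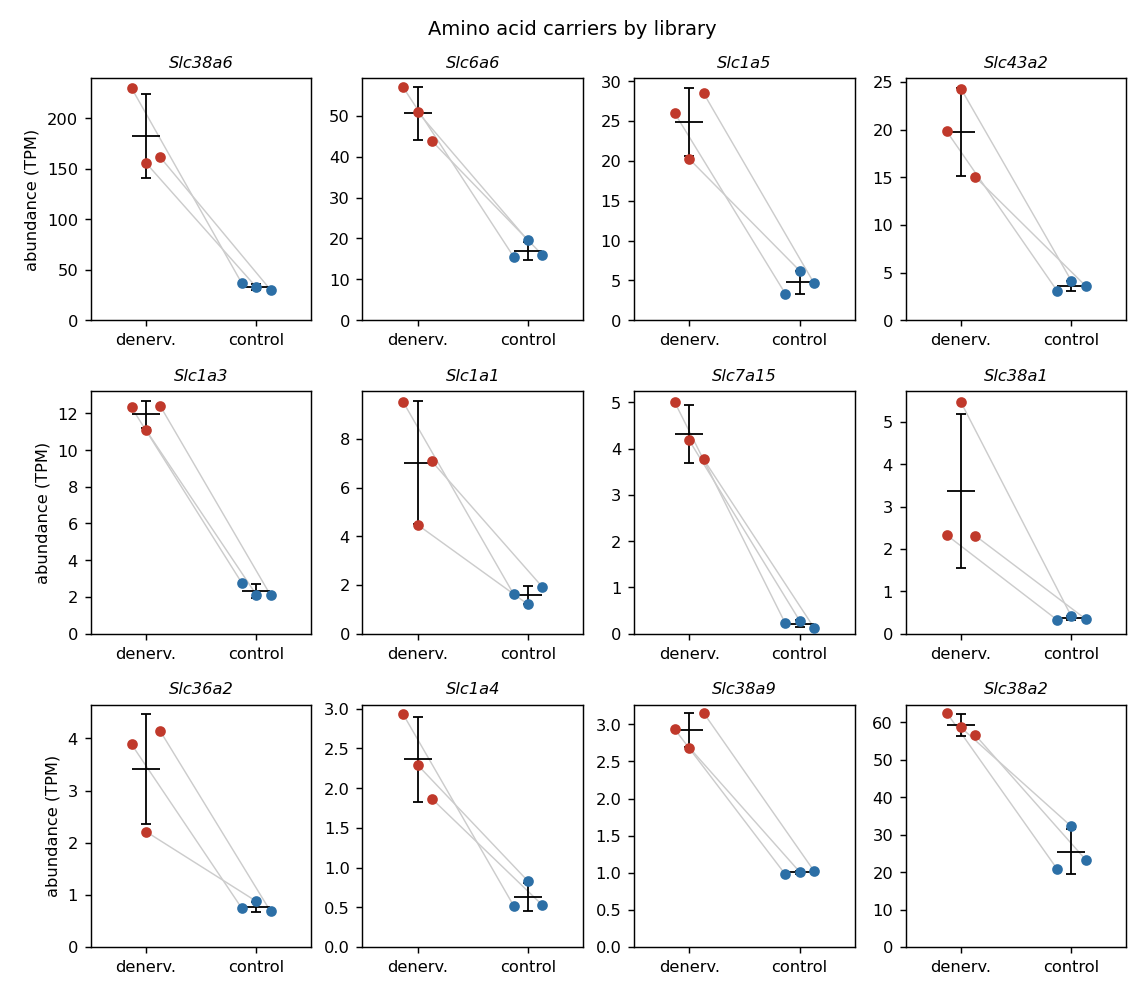
Abundance in TPM of 12 amino acid carriers, each point 1 muscle, denervated at left and control at right, with grey lines joining the muscles of a mouse and bars for mean ± SD (n = 3). All 12 genes have every denervated point above every control point, and on this scale the groups did not overlap for 126 of all 150 members. That count was not made over all genes, of which 69.9% of those tested were called higher on this scale. The last gene shown, Slc38a2, was not called after scaling.

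Carriers of protons, bicarbonate and chloride held both the largest rise by log2 fold change and 2 of the 7 falls. Of 20 tested, 3 rose and 2 fell, beside 15.7% and 4.50% of all genes, with medians of 0.85 on the deposited scale and 0.066 after scaling. Slc4a3, which encodes the chloride-bicarbonate exchanger AE3 known from heart and brain (ENSMUSG00000006576, chromosome 1: 75546266 to 75562172, plus strand), had 37.6, 35.5 and 32.1 TPM in denervated muscles, against 1.74, 2.39 and 2.38 TPM in control muscles (log2 fold change 3.51 ± 0.16 (SE), adjusted p = 8.6e-07; scaled 2.75 ± 0.13, adjusted p = 1.81e-05). Every denervated library stood far above every control library, and no other member had a larger log2 fold change on either scale. These fold changes carry a pseudocount of 1, which understates those of low genes such as Slc7a15 and Slc44a4. Slc9a9, the sodium-proton exchanger NHE9 of endosomes (ENSMUSG00000031129, chromosome 9: 94669909 to 95230445, plus strand), had 15.5, 11.2 and 14.1 TPM in denervated muscles, against 1.43, 2.31 and 1.48 TPM in control muscles (log2 fold change 2.42 ± 0.19 (SE), adjusted p = 1.71e-05; scaled 1.70 ± 0.15, adjusted p = 1.65e-04). Slc4a7, an electroneutral sodium-bicarbonate cotransporter, had 9.30, 5.67 and 5.38 TPM in denervated muscles, against 2.13, 2.40 and 2.08 TPM in control muscles (scaled log2 fold change 0.54, adjusted p = 0.0177), with mouse 1 the highest.

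The falls were those of Slc9a2 and Slc26a10. Slc9a2, the sodium-proton exchanger NHE2 best known from gut and kidney epithelium (ENSMUSG00000026062, chromosome 1: 40680574 to 40769273, plus strand), had 2.44, 1.57 and 1.63 TPM in denervated muscles, against 8.6, 6.34 and 8.61 TPM in control muscles (log2 fold change -1.62 ± 0.19 (SE), adjusted p = 1.35e-04; scaled -2.31 ± 0.17, adjusted p = 8.53e-05). Slc26a10, of the anion exchanger family, had 1.20, 0.740 and 0.972 TPM in denervated muscles, against 2.69, 2.29 and 1.34 TPM in control muscles (log2 fold change -0.64 ± 0.20 (SE), adjusted p = 0.0179; scaled -1.16 ± 0.19, adjusted p = 0.00304). The groups did not overlap for either gene. The Slc26a10 value is uncertain, since 17.04% of its 31-base stretches lie in B4galnt1 on the opposite strand. None of the 6 cation-chloride cotransporters of family SLC12 rose or fell. Slc12a2, the sodium-potassium-chloride cotransporter, had 15.9, 12.7 and 10.5 TPM in denervated muscles, against 9.75, 13.6 and 9.71 TPM in control muscles, and its log2 fold change was 0.22 as deposited and -0.61 scaled (adjusted p = 0.00986).

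Both abundant magnesium carriers fell. Family SLC41 holds sodium-magnesium exchangers. Slc41a3 (ENSMUSG00000030089, chromosome 6: 90604725 to 90646412, plus strand) had 11.05, 10.5 and 7.66 TPM in denervated muscles, against 45.7, 38.9 and 46.03 TPM in control muscles (log2 fold change -2.06 ± 0.17 (SE), adjusted p = 2.1e-05; scaled -2.91 ± 0.15, adjusted p = 2.38e-05). It was the most abundant member in control muscle, and no other member had a lower log2 fold change on either scale. Slc41a1 (ENSMUSG00000013275, chromosome 1: 131827493 to 131848865, plus strand) had 21.5, 20.5 and 22.1 TPM in denervated muscles, against 37.5, 35.03 and 33.4 TPM in control muscles (log2 fold change -0.70 ± 0.13 (SE), adjusted p = 0.00134; scaled -1.56 ± 0.12, adjusted p = 9.39e-05). Its denervated libraries lay close together and below all controls. Slc41a2, the least abundant of the family, had 1.47, 1.79 and 1.28 TPM in denervated muscles, against 0.278, 0.732 and 0.750 TPM in control muscles and was called higher before scaling alone (0.67; scaled 0.25, adjusted p = 0.358). The sodium-calcium exchangers of families SLC8 and SLC24 neither rose nor fell. Slc24a6, which encodes the mitochondrial exchanger NCLX, had 8.68, 11.5 and 7.88 TPM in denervated muscles, against 2.14, 3.93 and 3.69 TPM in control muscles (scaled 0.55, adjusted p = 0.114; blocked by mouse, adjusted p = 0.0355), and Slc8a3, the muscle and brain exchanger NCX3, had 5.24, 3.64 and 3.90 TPM in denervated muscles, against 7.06, 3.71 and 6.09 TPM in control muscles.

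**Figure D4:**
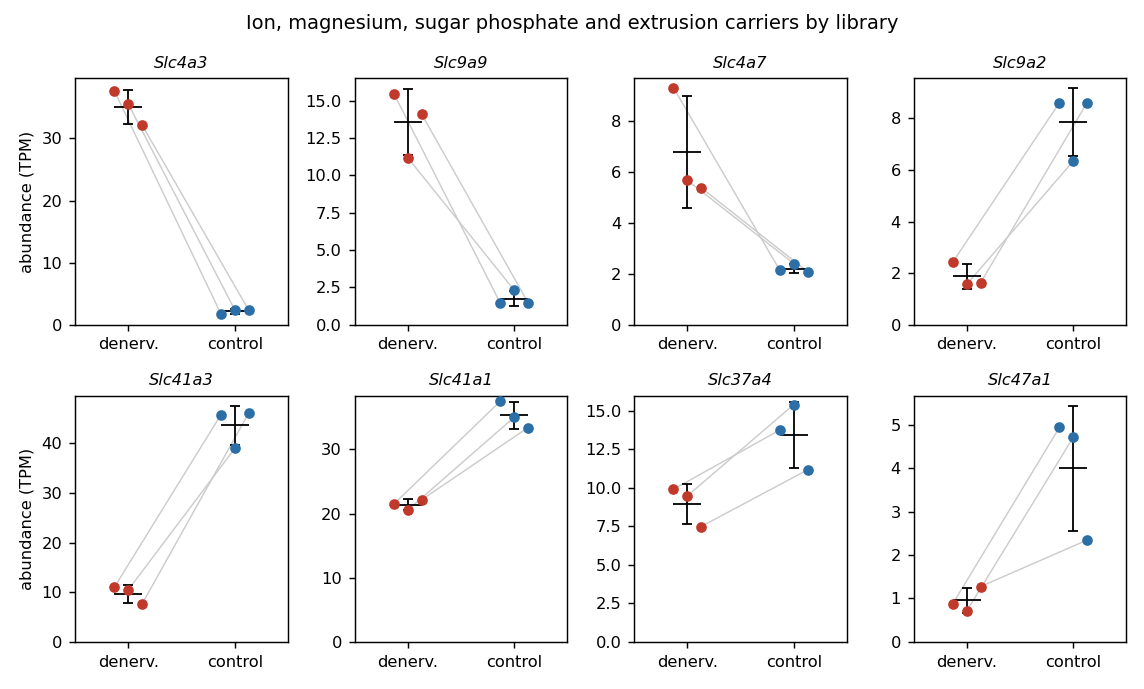
Abundance in TPM of 8 carriers of ions, magnesium, sugar phosphate and organic cations, each point 1 muscle, denervated at left and control at right, with grey lines joining the muscles of a mouse and bars for mean ± SD (n = 3). Slc4a3, Slc9a9 and Slc4a7 are higher, and the other 5 lower, in all 3 denervated muscles.

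Promoter windows are shown for the carriers with the largest rises among proton and bicarbonate carriers and for both falling magnesium carriers. Slc4a3 and Slc41a3 hold the largest rise and the largest fall of all members on both scales, by log2 fold change with a pseudocount of 1. Each window runs from 250 bases before to 50 bases after a RefSeq transcript start on GRCm38.p6, and windows were available for 25 of the 33 risen or fallen members. They are written in the direction of transcription, with capitals for any of 4 motifs searched on both strands.
Slc4a3 (chr1:75546212-75546511, plus strand): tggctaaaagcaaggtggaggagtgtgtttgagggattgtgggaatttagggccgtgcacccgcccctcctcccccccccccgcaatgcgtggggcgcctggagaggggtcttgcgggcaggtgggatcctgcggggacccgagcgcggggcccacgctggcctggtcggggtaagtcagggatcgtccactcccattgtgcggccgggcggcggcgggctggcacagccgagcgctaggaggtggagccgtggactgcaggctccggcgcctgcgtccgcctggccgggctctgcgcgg
Slc9a9 (chr9:94669642-94669941, plus strand): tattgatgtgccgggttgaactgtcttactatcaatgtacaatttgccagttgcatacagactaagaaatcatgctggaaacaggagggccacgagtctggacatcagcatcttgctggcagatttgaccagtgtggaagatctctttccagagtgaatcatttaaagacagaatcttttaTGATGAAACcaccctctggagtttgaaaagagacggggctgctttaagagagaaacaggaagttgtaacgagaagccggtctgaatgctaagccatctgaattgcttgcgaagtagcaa
Slc41a3 (chr6:90618996-90619295, plus strand): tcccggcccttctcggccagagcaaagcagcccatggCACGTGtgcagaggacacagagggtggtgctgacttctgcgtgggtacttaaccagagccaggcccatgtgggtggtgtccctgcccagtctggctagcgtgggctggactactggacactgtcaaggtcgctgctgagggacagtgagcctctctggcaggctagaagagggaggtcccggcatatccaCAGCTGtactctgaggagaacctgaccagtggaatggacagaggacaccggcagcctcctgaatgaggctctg
Slc41a1 (chr1:131827762-131828061, plus strand): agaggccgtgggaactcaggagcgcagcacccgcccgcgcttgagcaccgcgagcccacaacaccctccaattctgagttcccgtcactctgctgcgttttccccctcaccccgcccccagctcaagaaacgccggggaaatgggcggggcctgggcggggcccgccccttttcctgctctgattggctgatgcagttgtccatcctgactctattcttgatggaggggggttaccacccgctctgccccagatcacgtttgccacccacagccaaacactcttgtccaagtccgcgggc
The motifs were CAGCTG and CACGTG, E-box forms bound by myogenic factors and by USF and MiT factors, TATAAA, the TATA box, and TGATGNAAN, the amino acid response element bound by ATF4. No motif overlapped another in these windows. The Slc4a3, Slc41a3 and Slc41a1 starts used by RefSeq lie inside the span that GENCODE gives those genes. That of Slc41a3 lies farthest inside, with a window from 90618996 where the GENCODE gene begins at 90604725. The Slc41a3 window holds 1 CAGCTG and 1 CACGTG, that of Slc9a9 holds 1 TGATGNAAN match (TGATGAAAC), and those of Slc4a3 and Slc41a1 hold none of these letters. CAGCTG was found in 16.7% of the 24 windows of risen members and 2 of the 7 windows of fallen members, beside 16.3% of all 32851 windows. TGATGNAAN was found in 2 and 1 of them, beside 3.95% of all windows, CACGTG in 2 and 1, beside 7.15%, and TATAAA in 4 and 2, beside 13.6%. These are matches of letters, not measured sites.

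Most metal carriers had no call on both scales. That was so for most genes too. Of 18 tested, 2 rose and 1 fell, beside 15.7% and 4.50% of all genes, and the medians were 0.83 and 0.11. Slc39a13, the zinc carrier ZIP13 of the early secretory pathway, which is mutated in a connective tissue disorder, had 37.2, 28.7 and 24.9 TPM in denervated muscles, against 9.19, 12.5 and 9.79 TPM in control muscles (log2 fold change 1.43 ± 0.19 (SE), adjusted p = 2.26e-04; scaled 0.59 ± 0.12, adjusted p = 0.00724). Slc39a14, the carrier ZIP14 that takes up zinc, iron and manganese, had 9.08, 10.1 and 9.62 TPM in denervated muscles, against 2.94, 3.63 and 3.06 TPM in control muscles (scaled log2 fold change 0.58, adjusted p = 0.0157). Neither overlapped between the groups. Slc30a2, which encodes ZnT2 and loads zinc into vesicles, fell, with 0.705, 0.610 and 0.674 TPM in denervated muscles, against 1.71, 6.15 and 1.76 TPM in control muscles (scaled log2 fold change -1.66, adjusted p = 0.0104). Control mouse 2 stood far above the other controls, so the size of this fall rests partly on 1 library. Without it the log2 fold change was -0.72 on the deposited scale and -1.24 after scaling. The metal carrier with the highest mean over all 6 libraries, Slc30a9, had 31.3, 22.97 and 29.5 TPM in denervated muscles, against 21.5, 21.2 and 21.2 TPM in control muscles, a deposited log2 fold change of 0.36 and a scaled one of -0.50 (adjusted p = 0.0135). Slc30a1, the zinc exporter of the plasma membrane, had 4.05, 2.88 and 3.64 TPM in denervated muscles, against 1.39, 1.80 and 1.66 TPM in control muscles and was not called after scaling (0.15).

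Carriers of choline and acetyl-CoA rose in part. Of 6 tested lipid, choline and acetyl-CoA carriers, 3 rose and 0 fell, beside 15.7% and 4.50% of all genes, with medians of 0.96 and 0.20. Slc44a1, a choline carrier that supplies phospholipid synthesis, had 36.8, 30.97 and 23.6 TPM in denervated muscles, against 7.77, 10.5 and 8.76 TPM in control muscles (log2 fold change 1.64 ± 0.19 (SE), adjusted p = 1.35e-04; scaled 0.79 ± 0.13, adjusted p = 0.00351). Slc44a4 of the same family had 1.76, 1.07 and 1.80 TPM in denervated muscles, against 0.0722, 0.0929 and 0.0519 TPM in control muscles (scaled log2 fold change 0.94, adjusted p = 0.00214), a low gene near 0 in control muscle. Slc33a1, which brings acetyl-CoA into the endoplasmic reticulum, had 4.48, 3.77 and 4.11 TPM in denervated muscles, against 1.59, 1.57 and 1.39 TPM in control muscles (scaled log2 fold change 0.39, adjusted p = 0.0310; blocked by mouse, adjusted p = 0.0611). Its groups lie apart, but 31.2% of its 31-base stretches occur in an antisense transcript, so its level is uncertain. The most abundant of the group, Slc44a2, had 54.1, 25.6 and 36.9 TPM in denervated muscles, against 24.8, 13.4 and 22.6 TPM in control muscles and a scaled log2 fold change of 0.019 (adjusted p = 0.969). The fatty acid transport protein gene Slc27a1, which is high in muscle and fat, had 10.9, 7.35 and 12.3 TPM in denervated muscles, against 10.3, 8.80 and 12.4 TPM in control muscles, and its groups overlapped (-0.053; scaled -0.87, adjusted p = 0.0186).

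Among 4 tested carriers of phosphate, sulfate and sialic acid 2 rose and 0 fell (medians 0.93 and 0.16), and of 2 peptide carriers 1 rose. By the same rule 15.7% of all genes rose and 4.50% fell. Slc20a1, a sodium-phosphate cotransporter, had 26.99, 9.63 and 14.96 TPM in denervated muscles, against 3.82, 4.56 and 3.69 TPM in control muscles (scaled log2 fold change 0.95, adjusted p = 0.0221). Denervated mouse 1 stood well above the other muscles. Its relative Slc20a2, the most abundant gene of the group, had 40.8, 27.1 and 31.3 TPM in denervated muscles, against 18.3, 16.8 and 19.2 TPM in control muscles, and its log2 fold change was 0.82 as deposited and -0.049 scaled. Slc17a5, the lysosomal sialic acid carrier sialin, had 5.52, 4.53 and 4.80 TPM in denervated muscles, against 1.93, 1.74 and 1.92 TPM in control muscles (scaled log2 fold change 0.38, adjusted p = 0.0398; blocked by mouse, adjusted p = 0.0596). Slc15a4, which moves histidine and small peptides out of lysosomes and is the most abundant of the 2 peptide carriers, had 6.45, 5.93 and 5.26 TPM in denervated muscles, against 1.99, 2.08 and 2.10 TPM in control muscles (scaled log2 fold change 0.47, adjusted p = 0.0144). As deposited, the groups did not overlap for these 4 genes, while those of Slc20a2 overlapped after scaling.

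Carriers of organic acids and organic ions numbered 12 tested, of which 2 rose and 1 fell (medians 0.66 and 0.14), beside 15.7% and 4.50% of all genes. Slc22a17, known as a receptor for lipocalin-2, had 6.82, 6.26 and 5.16 TPM in denervated muscles, against 0.753, 1.03 and 0.710 TPM in control muscles (log2 fold change 1.95 ± 0.17 (SE), adjusted p = 2.86e-05; scaled 1.35 ± 0.12, adjusted p = 2.07e-04). Slc10a3, an orphan of the bile acid carrier family, had 6.44, 6.59 and 6.23 TPM in denervated muscles, against 1.77, 2.77 and 2.09 TPM in control muscles (scaled log2 fold change 0.52, adjusted p = 0.0287). Slc47a1, the proton-coupled exporter MATE1 of organic cations, fell, with 0.884, 0.714 and 1.27 TPM in denervated muscles, against 4.94, 4.71 and 2.34 TPM in control muscles (log2 fold change -1.32 ± 0.24 (SE), adjusted p = 0.00112; scaled -1.87 ± 0.24, adjusted p = 9.66e-04). The gene with the highest mean over all 6 libraries, Slc22a23, was higher on the deposited scale alone, with 8.16 ± 1.25 TPM in denervated muscle and 4.23 ± 0.422 TPM in control muscle (SD, n = 3; scaled 0.033, adjusted p = 0.868). The carnitine carrier Slc22a5 had 4.62, 2.67 and 4.72 TPM in denervated muscles, against 2.34, 1.88 and 2.36 TPM in control muscles, and 37.8% of its 31-base stretches occur in other genes. Neither it nor any of the 6 tested members of the monocarboxylate family SLC16 rose or fell.

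Sugar carriers went both ways, with 1 rise and 1 fall among 9 tested (medians 0.50 and -0.00043), beside 15.7% and 4.50% of all genes. Slc37a4, which carries glucose-6-phosphate into the endoplasmic reticulum and is the most abundant gene of the group, fell, with 9.90, 9.47 and 7.48 TPM in denervated muscles, against 13.8, 15.4 and 11.2 TPM in control muscles (log2 fold change -0.53 ± 0.17 (SE), adjusted p = 0.0189; scaled -1.35 ± 0.12, adjusted p = 2.1e-04). Slc37a2, a sugar phosphate carrier best known from macrophages, rose, with 2.11, 2.37 and 1.88 TPM in denervated muscles, against 0.282, 0.488 and 0.187 TPM in control muscles (scaled log2 fold change 0.84, adjusted p = 0.00462). Hexose carriers of family SLC2 outside the main glucose carriers were low, and none of the 3 tested rose or fell. Nucleoside and nucleotide sugar carriers held no call on both scales: of 22 tested, 0 rose and 0 fell on both scales, 3 were called lower after scaling alone, and the scaled values ran from -0.64 to 0.68. The 18 tested SLC35 genes are among them, the most abundant being Slc35a4 with 33.6 ± 1.21 TPM in denervated muscle and 22.1 ± 1.87 TPM in control muscle (SD, n = 3; scaled -0.28, adjusted p = 0.0942). The level of Slc35a4 is uncertain, since 20.5% of its 31-base stretches occur in other genes. Slc29a1, the equilibrative nucleoside carrier ENT1, had 39.4, 38.2 and 17.8 TPM in denervated muscles, against 8.70, 11.7 and 9.14 TPM in control muscles, was not called after scaling (0.68, adjusted p = 0.0802) and was called once blocked by mouse (adjusted p = 0.0424). Denervated mouse 3 stood well below the other denervated muscles.

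None of the 6 tested carriers of vitamins and haem rose or fell. The most abundant, the haem carrier Slc48a1, had 12.3, 9.32 and 11.1 TPM in denervated muscles, against 8.54, 9.07 and 7.58 TPM in control muscles, with a deposited log2 fold change of 0.34 and a scaled one of -0.48 (adjusted p = 0.00934). Of the vesicular transmitter carriers 1 of 3 was tested, Slc18b1, a vesicular polyamine carrier, with 4.98 ± 1.58 TPM in denervated muscle and 2.08 ± 0.530 TPM in control muscle (SD, n = 3; scaled 0.26, adjusted p = 0.424). Among the 4 genes that are not carriers, the scaffold gene Slc9a3r1, whose product NHERF anchors sodium-proton exchangers and other membrane proteins, rose, with 4.15, 3.94 and 4.69 TPM in denervated muscles, against 0.551, 0.862 and 0.662 TPM in control muscles (log2 fold change 1.64 ± 0.16 (SE), adjusted p = 5.63e-05; scaled 1.09 ± 0.14, adjusted p = 0.00119). Its relative Slc9a3r2, the most abundant of the 4 in control muscle, had 16.2, 13.3 and 15.1 TPM in denervated muscles, against 14.8, 23.3 and 16.8 TPM in control muscles. Its groups overlapped, with a lower call after scaling alone (-1.11, adjusted p = 0.00107).

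**Figure D5:**
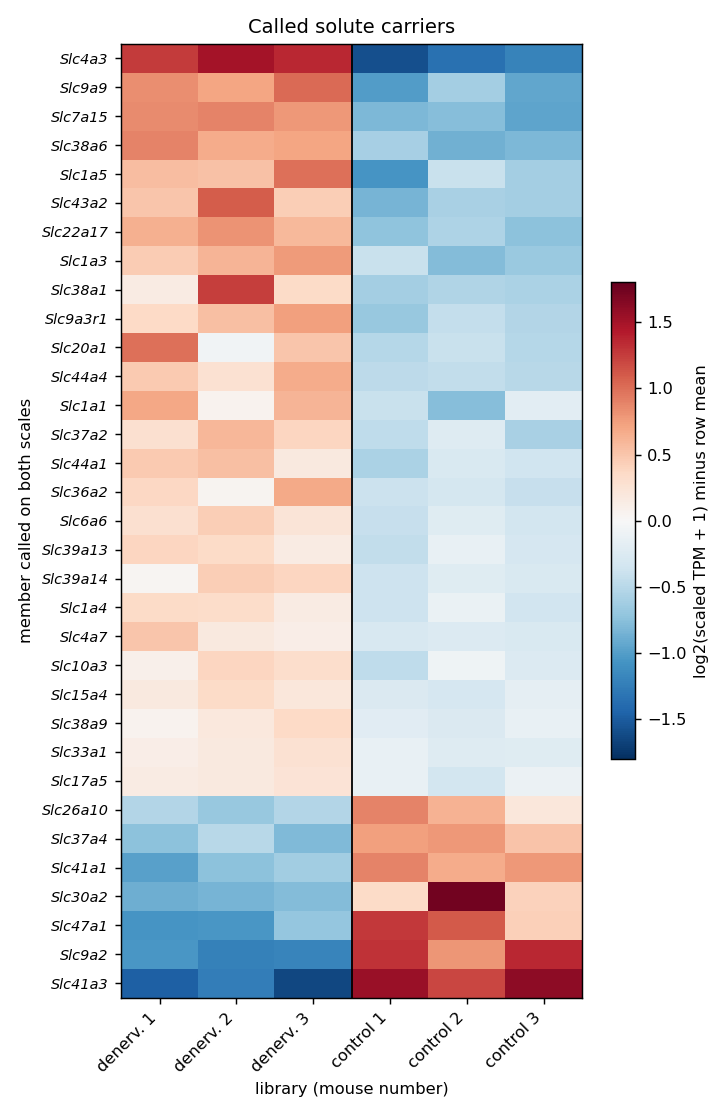
Rows are the 33 members called on both scales, ordered by scaled log2 fold change, and columns are the 3 denervated and 3 control libraries. Colour gives log2(scaled TPM + 1) minus the row mean; the 26 upper rows are higher and the 7 lower rows lower in the denervated columns.

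The calls differ in how firmly they stand. In 12 alternative settings, 11 of the 26 rises and 5 of the 7 falls kept their call in every one: Slc4a3, Slc9a9, Slc7a15, Slc38a6, Slc1a5, Slc43a2, Slc22a17, Slc1a3, Slc9a3r1, Slc44a4 and Slc6a6 among the rises, and Slc41a3, Slc9a2, Slc47a1, Slc30a2 and Slc41a1 among the falls. Among all 33, the risen Slc1a4, Slc36a2, Slc37a2, Slc38a1, Slc44a4, Slc7a15 and Slc9a3r1 were under 1 TPM in all 3 control libraries and the fallen Slc30a2 in all 3 denervated libraries, so these 8 were tested only through the group in which they are high. The other calls were lost when libraries were left out, and the larger of the adjusted p on both scales is given in brackets. Without denervated mouse 1, the call was lost for Slc17a5 (0.0891), Slc1a1 (0.0583), Slc1a4 (0.0626), Slc33a1 (0.0651), Slc36a2 (0.0503), Slc38a9 (0.0549) and Slc4a7 (0.0544). Without denervated mouse 2, the call was lost for Slc10a3 (0.0929), Slc15a4 (0.0533), Slc17a5 (0.0938), Slc1a4 (0.0564), Slc26a10 (0.0568), Slc33a1 (0.0788), Slc38a9 (0.101) and Slc39a14 (0.0555). Without denervated mouse 3, the call was lost for Slc10a3 (0.0858), Slc17a5 (0.116), Slc1a1 (0.0544), Slc20a1 (0.0629), Slc33a1 (0.102), Slc37a4 (0.0718), Slc38a9 (0.137) and Slc39a14 (0.0569). Slc17a5, Slc33a1 and Slc38a9 were lost without any 1 of the denervated libraries, the others without 1 or 2 of them. Without control mouse 1, the call was lost for Slc10a3 (0.0780), Slc17a5 (0.0678), Slc20a1 (0.0615), Slc26a10 (0.0705), Slc33a1 (0.0508), Slc37a4 (0.0578) and Slc38a9 (0.0922). Without control mouse 2, the call was lost for Slc17a5 (0.0864), Slc33a1 (0.0648), Slc37a4 (0.0661) and Slc38a9 (0.0912). Without control mouse 3, the call was lost for Slc10a3 (0.0708), Slc17a5 (0.0601), Slc1a4 (0.0518), Slc20a1 (0.0640), Slc33a1 (0.0835), Slc38a9 (0.0764) and Slc4a7 (0.0506). The same 3 genes were lost without any 1 of the control libraries, with Slc37a4 beside them without control mouse 2. Without both muscles of mouse 1, the call was lost for Slc10a3 (0.0840), Slc15a4 (0.0951), Slc17a5 (0.145), Slc1a1 (0.118), Slc1a4 (0.141), Slc20a1 (0.105), Slc26a10 (0.0736), Slc33a1 (0.108), Slc36a2 (0.111), Slc37a4 (0.0612), Slc38a9 (0.117), Slc39a13 (0.0825), Slc44a1 (0.0515) and Slc4a7 (0.120). Without both muscles of mouse 2, the call was lost for Slc10a3 (0.0602), Slc15a4 (0.0865), Slc17a5 (0.149), Slc26a10 (0.0945), Slc33a1 (0.122), Slc37a4 (0.0769), Slc38a9 (0.161), Slc39a14 (0.0716) and Slc4a7 (0.0625). Without both muscles of mouse 3, the call was lost for Slc10a3 (0.165), Slc15a4 (0.0759), Slc17a5 (0.158), Slc1a1 (0.0647), Slc1a4 (0.0823), Slc20a1 (0.140), Slc33a1 (0.208), Slc36a2 (0.0990), Slc37a2 (0.0523), Slc37a4 (0.0711), Slc38a1 (0.0766), Slc38a9 (0.196), Slc39a14 (0.123) and Slc4a7 (0.0712). Leaving out mouse 1 or mouse 3 brought the number of rises to 14 and 15, beside 938 and 1005 for all genes, whose number on the full data was 1922. Over 10% of the 31-base stretches occur in other genes for 6 of the 33 called members: Slc38a6, Slc1a1, Slc33a1, Slc26a10, Slc10a3 (10.95%) and Slc20a1 (10.9%).

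In the authors' deposited table, 6 of the members are on the sheet of 336 up genes and 1 is on the sheet of 21 down genes. The 6 are Slc4a3, Slc9a9, Slc38a6, Slc1a5, Slc43a2 and Slc7a15, and the other is Slc41a3.

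Partners of the carriers were looked at in lists of their own. The sodium pump supplies the gradient that many carriers use. Among its beta subunit genes, Atp1b3 rose (scaled log2 fold change 0.52), and Atp1b4 (-1.50) and Atp1b1 fell, the last with 114 ± 13.4 TPM in denervated muscle and 153 ± 26.2 TPM in control muscle (SD, n = 3; scaled -1.31). Of 16 tested ancillary subunits and regulators, 3 rose and 0 fell (medians 0.67 and -0.074). They were Emb, an ancillary subunit of monocarboxylate carriers, with 16.2 ± 5.14 TPM in denervated muscle and 1.59 ± 0.501 TPM in control muscle (scaled 2.00), the metallothionein Mt2, which binds zinc (scaled 1.82), and Arl6ip5, a binding partner of EAAC1 (scaled 1.36). The most abundant, the kinase Wnk1 that controls SLC12 carriers, measured 404 ± 271 TPM in denervated muscle and 223 ± 161 TPM in control muscle (scaled -0.027). Both muscles of mouse 3 were the highest of their group (710 and 409 TPM). On the deposited scale the limma adjusted p of Wnk1 was 0.148, and 6.77e-04 when blocked by mouse. After scaling it was not called with or without the block. Of 12 tested carriers with other names, Mfsd12 rose and Slco5a1 and Spns2 fell (scaled 0.40, -1.49 and -1.56; Mfsd12 blocked by mouse, adjusted p = 0.0712), and the most abundant, the phosphate exporter Xpr1, had a scaled value of 0.18. Mfsd12 was under 1 TPM in every control library (0.474, 0.565 and 0.471 TPM) and was tested only through denervated muscle, where it is high.

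The members had a higher median than the mitochondrial carriers. The 36 Slc25a genes had 5 rises and 6 falls and medians of 0.49 and -0.20 after scaling, against 26 and 7 among 140 members with 0.77 and 0.096. The 9 left-out carriers had 1 rise and 4 falls and medians of 0.20 and -0.67. These counts and medians are a description, and the differences between the lists were not tested.

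Markers of some other cell types differed between the groups. The summed skeletal muscle markers were 21658 to 27861 TPM in denervated and 22285 to 25094 TPM in control libraries (1 rise and 3 falls among 7), far above the other marker sums. Of 6 adipocyte markers 4 rose and 0 fell, and their sum was 412 to 866 TPM in denervated and 200.4 to 303 TPM in control libraries. That list differs between the groups in the same direction as Slc36a2 and Slc7a10, which fat cells also express. As deposited, 125 of 140 members and 10946 of all 12268 genes tested went in that direction, and Slc7a10 was not called after scaling. The marker Fabp4, at 515 TPM in denervated and 234 TPM in control muscle, was not called after scaling either (0.18, limma adjusted p = 0.658). Satellite cell markers rose in 3 of 3 cases, with a sum of 9.52 to 13.8 TPM in denervated and 2.43 to 2.75 TPM in control libraries. Of these, Pax7 was under 1 TPM in every control library (0.502, 0.738 and 0.605 TPM). It was tested only through denervated muscle, where it is high. Macrophage markers had 0 rises and 0 falls among 6 and a sum of 121 to 179 TPM in denervated and 62.3 to 142 TPM in control libraries, beside Slc37a2 and Slc15a4. Of 3 tested Schwann cell markers 2 fell, and the sum was 41.2 to 59.8 TPM in denervated and 69.9 to 157 TPM in control libraries. Mbp, a myelin protein gene, was at 2.69 TPM in denervated muscle, against 17.8 TPM in control muscle. The fibroblast sum was 935 to 1938 TPM in denervated and 526 to 1388 TPM in control libraries, with 0 rises and 0 falls among 6, and the smooth muscle sum was 111 to 171 TPM in denervated and 151 to 205 TPM in control libraries, with 0 rises and 1 fall among 4. Tendon markers summed to 122 to 179 TPM in denervated and 72.6 to 131 TPM in control libraries (1 rise among 4, that of Scx), endothelial markers to 58.1 to 80.5 TPM in denervated and 63.2 to 85.8 TPM in control libraries and erythroid markers to 149.6 to 295 TPM in denervated and 164 to 393 TPM in control libraries (neither list held a call on both scales). After scaling alone, 6 of 7 endothelial and 2 of 2 erythroid markers were called lower. With the mouse as a block, Cd68 of macrophages (scaled adjusted p = 0.0208) and Lep of adipocytes (0.0354) gained a higher call on both scales, and Pmp22 of Schwann cells (4.4e-04), Hba-a1 of erythroid cells (0.00340) and Tnmd of tendon (2.62e-04) a lower one. No marker in the table was at 0 in any library, and 10 markers of the lists were not analysed here. The part of any of these cell types in the carrier results was not tested.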

How the data were processed

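Total RNA of whole biceps was amplified (Ovation V2), and Nextera XT libraries were read from both ends at 75 bases, per the labels' protocols, which do not state that strand was kept. The authors deposited log2 values per gene and library for 13105 genes, with zeros kept at 0. Kallisto 0.42.1 and mm10 are named in the submitters' processing notes. No header names the unit, so the values are read as log2(TPM + 1), which leaves 68.8% to 80.3% of the full TPM total in each library. Without counts, depth per value is unknown. The authors' deposited signed fold score was not used, and neither the test behind their deposited p-values nor the joining of transcripts into genes is known from the sources used here.

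Genes with at least 1 TPM in at least 3 of 6 libraries (12268) went into limma 3.58.1 under R 4.3.3 (eBayes with a trend, group as factor, pseudocount 1, Benjamini-Hochberg adjustment, calls under 0.05). A second fit used values divided by median-of-ratios factors (1.60, 1.27 and 1.27 in denervated libraries, 0.724, 0.789 and 0.697 in control libraries) and logged again. Fold changes on the log2(TPM + 1) scale understate those of low genes. The fit was also run on simulated data with independent errors, which held neither a general shift nor a pairing of muscles. That run therefore cannot show how the fit behaves under those 2 features of the real data. Muscles of a mouse share a number in the labels, and their deviations from the group means correlated at 0.312, 0.183 and 0.411 across genes for mice 1, 2 and 3, all above 0.1. Among muscles of different mice, denervated mouse 1 with control mouse 2 was also above 0.1 (0.115), and the others ran from -0.393 to 0.0081. The labels state no model, so the main fits held no block for the mouse. Positions and 31-mers were taken from GENCODE M21 (GRCm38, equal to mm10), where all 150 gene IDs were found, and promoters from RefSeq on GRCm38.p6, where 120 members were found by symbol. Members named by rule are all those called on both scales and the most abundant of each substrate group, by the mean over all 6 libraries; others were chosen after their values were seen. Results for a few genes of the lists are not reported here. The members, lists and tests were chosen with earlier results of these data known. Alternatives were the mouse as a block, a pseudocount of 0.1, no filter on low values, and each library or mouse left out.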

Additional observations from a re-analysis of the deposited data

How the results depend on the processing

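The count of members lower on both scales kept within 1.5 times its main value of 7 in every setting, from 5 to 7 when libraries or mice were left out. That of members higher on both scales, 26, ran from 14 to 27 and was 14 and 15 without mouse 1 and mouse 3, while that of all genes, 1922, ran from 938 to 1825, with 938 and 1005. Genes called higher and lower after scaling ran from 938 to 1825 and 1322 to 2277. Scaling itself brought the higher calls to 1922 from 8580 for all genes and to 26 from 109 for members, and the lower calls to 2280 from 552 and to 25 from 7. Among the named genes recomputed in every setting, it turned the sign of Slc20a2 (-0.049), Slc30a9 (-0.50), Slc35a4 (-0.28) and Slc48a1 (-0.48). When libraries or mice were left out, the scaled values of 4 of the 8 uncalled genes so recomputed changed sign, with ranges of -0.078 to 0.47 for Slc18b1, -0.15 to 0.026 for Slc20a2, -0.079 to 0.10 for Slc22a23 and -0.30 to 0.22 for Slc44a2. The cause was not tested. With the mouse as a block, Slc17a5, Slc33a1 and Slc38a9 lost and Slc24a6, Slc29a1 and Slc38a2 gained a higher call, and no other member's call on both scales changed. A pseudocount of 0.1 and no filter changed no call among the named genes. The 3 pairs of muscles come from separate mice, and depth per value is unknown.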
